A study of Drosophila melanogaster with 4 samples.

Results

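The vacuolar ATPase genes of the fruit fly (Drosophila melanogaster) were followed here in guts of females fed with or without manganese. Members were chosen by name alone: every gene whose current symbol starts with Vha, 33 in all, of which 32 had a row among the 13932 identifiers of the deposited table. Vha44, which encodes subunit C, had no row under its current identifier and is not analysed here. It may stand under an older identifier that the name tables used here do not link, so the V1 and total Vha sums are without subunit C. In the gut, 14 of the 32 genes stood above 100 RPKM (reads scaled by gene length and by the reads of the library) and 14 stood under 1 RPKM. Most subunits were thus represented by 1 abundant gene. No Vha gene differed between the diets past the test, and neither did any other of the 7556 genes tested.

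The comparison is between guts from food without added manganese and guts from food with it. All flies were Oregon R-C, a wild-type strain, and ate a chemical diet containing either 5 ppm manganese or none added. Parents (10 of each sex) laid eggs on a diet for 5 days, and newly emerged daughters were then kept on fresh medium with the same manganese content for 5 days. There are 2 libraries per diet, named B and C by their letters in the table; the labels do not state whether they are separate pools of guts, and p-values here measure a spread that may be technical.

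The V-ATPase is a rotary proton pump of endosomes, lysosomes and some plasma membranes. Its cytosolic V1 part splits ATP and turns a central stalk, and its membrane Vo part carries protons past a ring of c subunits against the a subunit. In the insect gut the pump acidifies the lumen of the middle midgut, where copper cells secrete acid, and it energises transport across epithelia such as the Malpighian tubule. In the fly many subunits have several paralogs, some used widely and others in few tissues.

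Depth, recovered from the steps of whole reads in low values, was 24399759 to 28010953 reads per library. The no-manganese library C stood apart by eggshell and ovary RNA, with a summed 466 RPKM over 12 marker genes against 0.602 to 4.12 in the other libraries, and its fat body sum was also the highest, at 834 against 209 to 479 RPKM. Summed enterocyte markers were 21357 and 19768 RPKM on the manganese-free diet and 18021 and 14530 on the 5 ppm diet, and nearly all of it came from the digestive enzyme genes alphaTry, Jon65Aiii, Jon65Aiv and Amy-p. The enterocyte genes Myo31DF and nub, in the same list, lay at log2 fold changes of -0.06 ± 0.11 SE and -0.04 ± 0.14 SE. Malpighian tubule markers summed to 58.7 to 71.8 RPKM, most of it from the water and solute channel genes Drip (24.4 to 35.4 RPKM) and Eglp2 (15.3 to 23.7 RPKM). Of these 14 markers 9 had a mean under 1 RPKM, among them Uro, the urate oxidase of principal cells, at 0.211 to 1.37 RPKM. Of 10 testis markers 5 were listed at 0 in every library, and their sum was 1.64 to 2.60 RPKM.

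**Figure D1:**
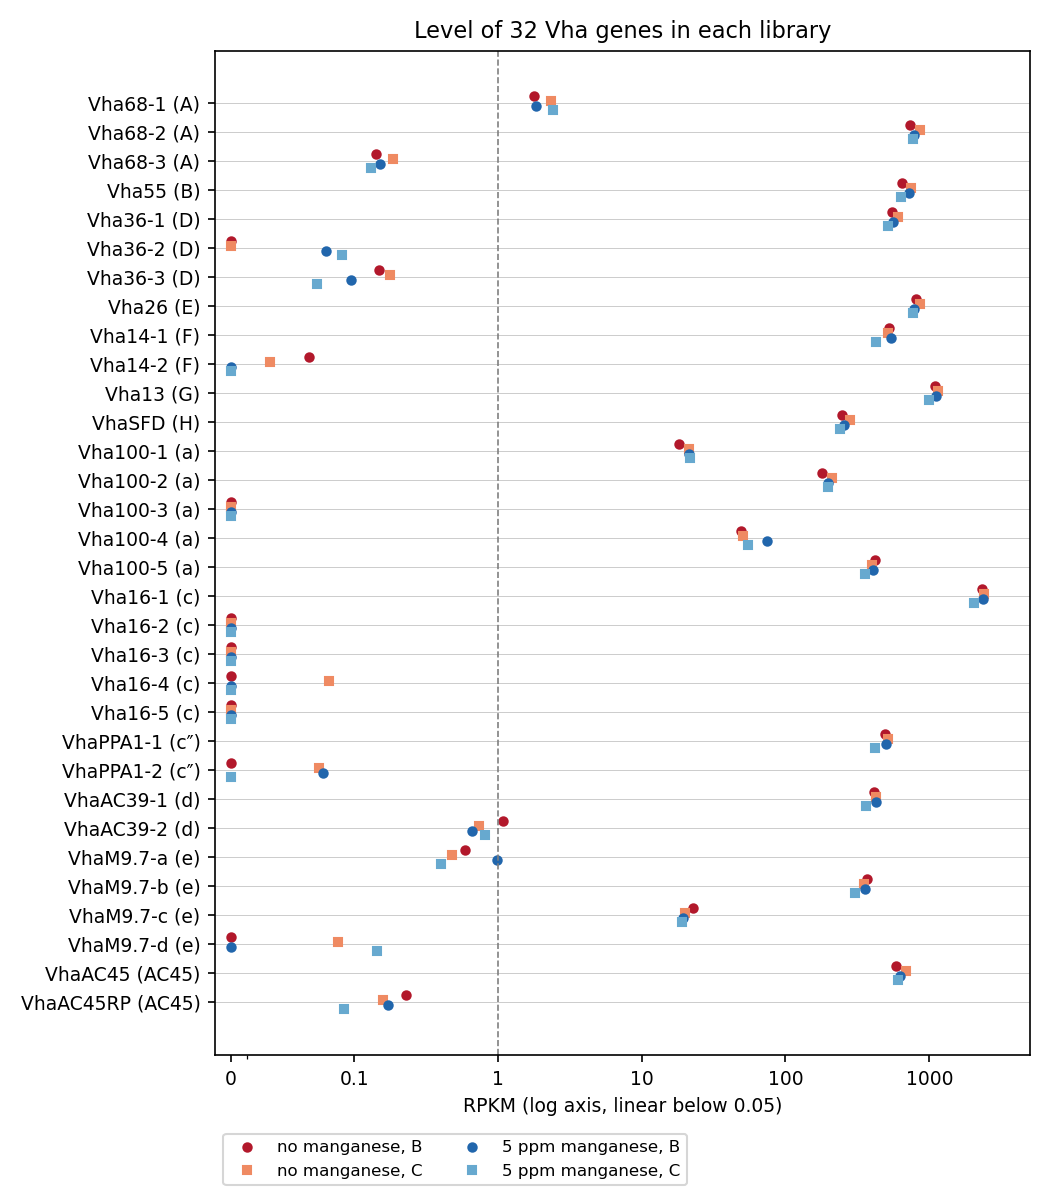
RPKM (log axis, linear below 0.05) of the 32 Vha genes in each of the 4 libraries, ordered by subunit, which is given in brackets; the dashed line marks 1 RPKM, the level needed for the test. In most subunit families 1 paralog lies above 100 RPKM and the others lie below 1, while subunit a has 4 genes above 10 RPKM.

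In V1, the catalytic head was represented by Vha68-2 (subunit A, which splits ATP) and Vha55 (subunit B). Vha68-2 had 733 and 857 RPKM in libraries B and C without manganese, against 782 and 765 RPKM in libraries B and C at 5 ppm; values below keep this order. Vha55 had 648 and 745 RPKM without manganese, compared with 728 and 634 at 5 ppm. For both genes the diets overlapped, and the no-manganese library C was the highest. The ratio of the Vha68-2 level to the Vha55 level was 1.07 to 1.21 over the libraries, so the head subunits stood close to each other. The log2 fold change, no manganese minus 5 ppm on the log2(RPKM + 1) scale, was 0.04 for Vha68-2 (95% interval -0.34 to 0.41) and 0.03 for Vha55 (-0.37 to 0.43).

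The other A paralogs were far below. Vha68-1 had 1.79 and 2.33 RPKM without manganese, against 1.84 and 2.42 at 5 ppm, so that in both diets library C was the higher. The Vha68-2 level was 316 to 426 times that of Vha68-1, which therefore carried 0.234% to 0.315% of subunit A RPKM. Its log2 fold change was -0.03 (-0.49 to 0.43). Vha68-3 stayed between 0.131 and 0.187 RPKM, worth 9 to 12 reads per library. It begins 178 bases after the end of Vha68-2 on chromosome arm 2L, in the same direction (12978786 to 12981293 on the plus strand of dm6), so its few reads lie beside a gene of much higher level.

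The stalks of V1 were each represented by a single abundant gene. Vha36-1, subunit D of the central rotor, had 553 and 608 RPKM on the manganese-free diet and 562 and 520.0 on the 5 ppm diet. Vha14-1, subunit F of the same rotor, had 527 and 518 RPKM without manganese, compared with 545 and 428 at 5 ppm. Both overlapped between the diets, with the 5 ppm library C at the bottom. Vha26, subunit E of the peripheral stalks, had 812 and 860.2 RPKM without manganese, against 789 and 767 at 5 ppm. Vha13, subunit G that pairs with E, had 1104 and 1148 RPKM on the manganese-free diet and 1121 and 1002 on the 5 ppm diet. The diets overlapped for Vha13, and did not for Vha26, whose no-manganese libraries were both the higher. VhaSFD, the regulatory subunit H, was the lowest of the main V1 genes, with 247 and 279.8 RPKM without manganese, compared with 256 and 239 at 5 ppm. For VhaSFD too the diets overlapped. Log2 fold changes of these 5 genes ran from 0.09 for Vha13 (-0.28 to 0.46) to 0.11 for Vha14-1 (-0.32 to 0.54).

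In the membrane part, Vha16-1, which encodes the c subunit of the proton-carrying ring, was the most abundant Vha gene and ranked 32 among the 7556 genes tested. It had 2332 and 2416 RPKM without manganese, against 2356 and 2064 at 5 ppm, and the 5 ppm library C alone was low. Its log2 fold change was 0.11 (-0.31 to 0.52). Its level was 4.32 to 4.82 times the median of the other 13 members above 100 RPKM in the same library. That ratio, over the means of all libraries, was 4.54 with the deposited length scaling and 4.95 with reads scaled to the median transcript of each gene, a setting chosen after seeing the data. Vha16-2, Vha16-3 and Vha16-5 were listed at 0 in every library, and Vha16-4 was above 0 in 1 library, at 0.0670 RPKM, which is a single read. If those zeros are counts, 3 reads would be worth 0.148 to 0.207 RPKM for the genes listed at 0. For Vha16-2, 84.5% of exon bases lie under an antisense gene, and the sources used here do not say how reads in such places were counted.

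Other membrane genes stood lower than the ring gene Vha16-1. VhaPPA1-1, the related c″ ring subunit, had 491 and 519 RPKM on the manganese-free diet and 501 and 417 on the 5 ppm diet. VhaAC39-1, subunit d that joins the ring to the rotor, had 409.9 and 426 RPKM without manganese, compared with 426 and 362 at 5 ppm. VhaM9.7-b, a small e subunit, had 372 and 349 RPKM without manganese, against 359 and 306 at 5 ppm. All 3 overlapped between the diets, and all 3 were lowest in the 5 ppm library C. Their log2 fold changes were 0.14 (-0.24 to 0.53), 0.09 (-0.27 to 0.45) and 0.12 (-0.24 to 0.48).

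Subunit e, like A and a, had a second paralog above the tested level. VhaM9.7-c had 22.8 and 20.1 RPKM on the manganese-free diet and 19.3 and 19.0 on the 5 ppm diet. The diets did not overlap, by a gap of under 1 RPKM, and VhaM9.7-b remained 16.1 to 18.6 times as high. VhaM9.7-c had the smallest standard error of the 18 members tested, with a log2 fold change of 0.15 ± 0.11 SE (-0.13 to 0.43; limma, adjusted p = 0.825). VhaM9.7-a, classed as widely used from general knowledge of the fly, was at 0.402 to 0.981 RPKM, with 8 to 17 reads per library.

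The a subunit, which holds the proton path beside the ring and whose isoforms are known from yeast to set where the pump is placed, was the family in which several paralogs were abundant together. Vha100-5 was the leading gene, with 417 and 402 RPKM without manganese, compared with 404 and 356 at 5 ppm. Vha100-2 had 178 and 211 RPKM without manganese, against 199 and 197 at 5 ppm. Vha100-1, which is known for its role at synapses, had 18.2 and 21.4 RPKM on the manganese-free diet and 21.5 and 21.5 on the 5 ppm diet. For Vha100-5 and Vha100-2 the diets overlapped; for Vha100-1 they did not, but the no-manganese library C lay just under the 5 ppm values and library B alone was low. Log2 fold changes were 0.11 for Vha100-5 (-0.23 to 0.45), -0.03 for Vha100-2 (-0.38 to 0.31) and -0.12 for Vha100-1 (-0.42 to 0.19). The order Vha100-5, Vha100-2, Vha100-4, Vha100-1 was the same in every library, and neighbours in that order did not overlap over the 4 libraries. Vha100-3 was listed at 0 in every library, where 3 reads would be worth 0.0365 to 0.0419 RPKM.

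Vha100-4, the a subunit associated with acid-secreting copper cells, had 48.8 and 50.6 RPKM without manganese, compared with 74.5 and 54.5 at 5 ppm. The diets did not overlap, both no-manganese libraries were the lower, and the 5 ppm library B alone stood well above the rest. The log2 fold change was -0.35 ± 0.17 SE (-0.81 to 0.11), the largest in size among the 18 Vha genes tested, and it did not pass (limma, adjusted p = 0.802). It was -0.13 without the 5 ppm library B and -0.57 without the 5 ppm library C. In fold terms, the interval ran from 0.570 to 1.08 times the 5 ppm level. In bulk gut RNA, fewer copper cells and less Vha100-4 RNA per cell cannot be told apart.

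Over the a subunit as a whole, the sum of the 5 genes was 663 and 685 RPKM without manganese, against 699 and 629 at 5 ppm. That sum was 0.920 to 1.02 times the level of Vha55. Vha100-5 made up 63.0% and 58.7% of it without manganese and 57.8% and 56.5% with it. Vha100-4 made up 7.37% and 7.38% on the manganese-free diet and 10.7% and 8.66% on the 5 ppm diet. Neither share overlapped between the diets, Vha100-5 being higher and Vha100-4 lower without manganese. An exact 2-sided permutation test of the 4 libraries gave p = 0.333 for each share, the smallest that 2 against 2 allows. For Vha100-5, 18.1% of exon bases lie under the antisense gene asRNA:CR44144, which has no row of its own among the deposited values. Vha100-4 and Vha100-2 are neighbours on chromosome arm 3R, 517 bases apart and both on the minus strand (18386841 to 18389805 and 18390323 to 18399169 in dm6).

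**Figure D2:**
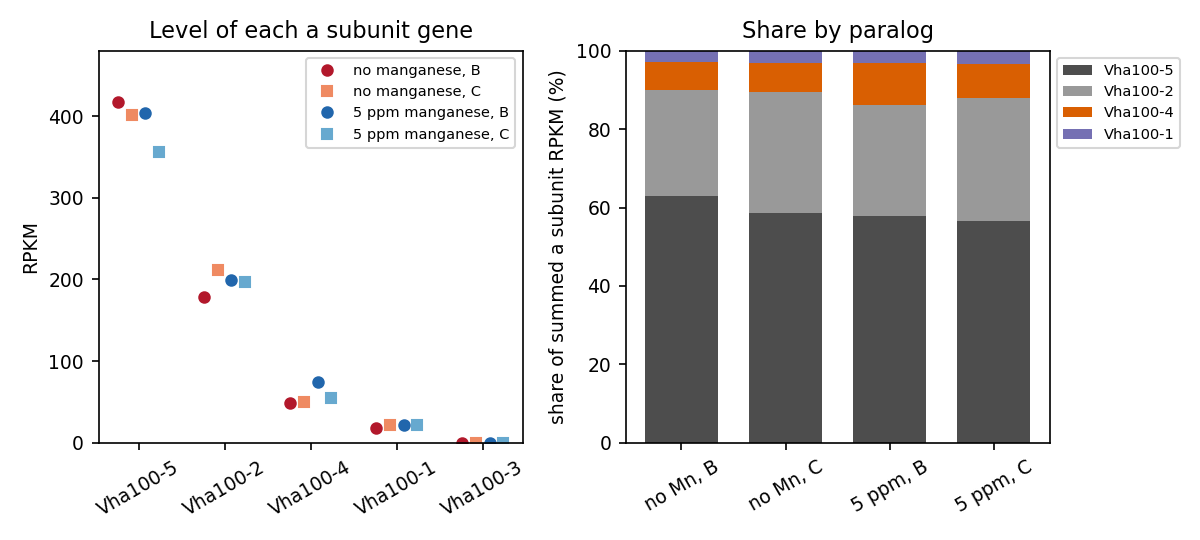
Left, RPKM of the 5 genes of subunit a in each library; right, the share (%) of their summed RPKM taken by each gene, with Vha100-3 at 0. Vha100-5 takes 56.5% to 63.0% in every library, and Vha100-4 takes 7.37% to 10.7%.

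Genes linked with copper cells were read beside Vha100-4. The homeobox gene lab, which sets copper cell identity, had 3.31 and 4.30 RPKM without manganese, compared with 4.34 and 4.22 at 5 ppm. The midgut transcription factor genes Ptx1 and dve lay at -0.16 ± 0.16 SE and at 0.01 ± 0.12 SE on the log2 fold change scale. The anion transporter gene Prestin had 87.1 and 57.0 RPKM without manganese, against 97.8 and 73.8 at 5 ppm. All 4 genes overlapped between the diets; for lab the no-manganese library B alone was low. The part of copper cell number in the Vha100-4 values was not tested. Another gene of the list, uif, had 0.104 and 0.265 RPKM without manganese, against 0.296 and 0.224 at 5 ppm, and was not tested. Of the 5 genes tested in this list, Vha100-4 among them, 4 were lower, beside 43.6% of all genes, 1 was higher and 0 passed. The median of the 5 was -0.16, beside 0.02 over all genes tested.

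VhaAC45, an accessory subunit that helps the pump assemble and travel, had 585 and 693 RPKM on the manganese-free diet and 625 and 603 on the 5 ppm diet. The 5 ppm values lay between the no-manganese values, and the log2 fold change was 0.05 (-0.33 to 0.43). Its relative VhaAC45RP lay between 0.0855 and 0.229 RPKM, with 4 to 10 reads per library. The other accessory protein, ATP6AP2, does not carry the Vha prefix and had 476 and 505 RPKM without manganese, compared with 486 and 411 at 5 ppm. It was lowest in the 5 ppm library C, as were 12 of the 18 Vha genes tested.

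The 14 members under 1 RPKM were outside the test, and 0 Vha genes passed in a limma fit with no filter on low values. Besides the 4 listed at 0 in every library, 10 were above 0 in some library. VhaAC39-2, the second d gene, was the highest of these, with 1.09 and 0.740 RPKM without manganese, against 0.665 and 0.811 at 5 ppm, or 20 to 35 reads. It carried 0.156% to 0.264% of subunit d RPKM. Vha36-3, a D paralog, had 5 and 6 reads on the manganese-free diet, against 3 and 2 at 5 ppm. Vha36-2, another D paralog, had 2 and 3 reads at 5 ppm and 0 in both other libraries. VhaPPA1-2 and VhaM9.7-d had 0 to 2 reads per library, and Vha14-2 was at or below 0.0486 RPKM.

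Genes were also split, from general knowledge of the fly, into 16 widely used and 16 restricted members with a row. Of the widely used genes 15 reached the tested level, and of the restricted genes 3 did. Those 3 were Vha100-5, Vha100-4 and VhaM9.7-c, and Vha100-5 stood above the widely used Vha100-2 by 1.80 to 2.34 times. The median log2 fold change was 0.09 for the widely used genes and 0.11 for the 3 restricted ones, whose values ran from -0.35 to 0.15.

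The diet comparison gave no call among the Vha genes. In the limma test 0 of 18 members passed in either direction at an adjusted p of 0.05, and 0% of all 7556 genes were called in each direction. At an unadjusted p under 0.05 there were again 0 Vha genes, beside 2.89% of all genes higher and 2.95% lower. By value 14 of 18 members were higher without manganese, beside 56.4% of all genes, with a median log2 fold change of 0.09 beside 0.02 over all genes. That count was 10 of 18 without the no-manganese library C, which carries the eggshell RNA, and 12 of 18 without the 5 ppm library C. It was 16 of 18 without the no-manganese library B and 14 of 18 without the 5 ppm library B. Across 7506 tested genes the log2 fold change fell with exon length (Spearman rho -0.27). The median exon length was 2702.5 bases for the tested members and 2024 for all tested genes. The part of gene length in the directions of the members was not tested. Only 2 members, Vha26 and VhaM9.7-c, were higher with no overlap between diets, 11.1% of those tested, beside 21.7% of all genes. Another 2, Vha100-4 and Vha100-1, were lower with no overlap, also 11.1%, beside 15.2% of all genes. Apart from Vha100-4, the largest log2 fold change in size among the tested members was 0.15, for VhaM9.7-c. The 95% intervals of the 14 members above 100 RPKM lay within 0.770 and 1.46 times the 5 ppm level.

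**Figure D3:**
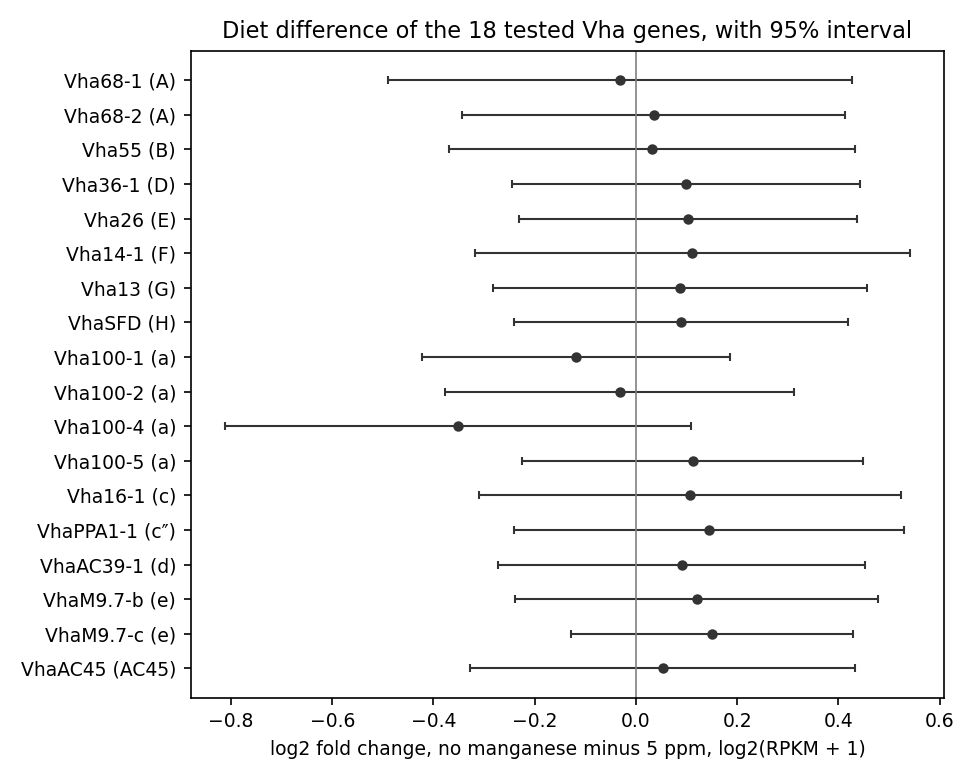
Log2 fold change (no manganese minus 5 ppm, log2(RPKM + 1)) of the 18 tested Vha genes with limma's 95% interval, 2 libraries per diet. Every interval includes 0, and Vha100-4, at -0.35, lies farthest from it.

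Summed over all 32 genes, Vha RPKM was 9503 and 10128 on the manganese-free diet and 9774 and 8759 on the 5 ppm diet. The 5 ppm library B lay between the no-manganese libraries, and an exact 2-sided permutation test gave p = 0.667, where 0.333 is the smallest possible. The difference of the means was 549 RPKM, 236 without the no-manganese library C and 41.1 without the 5 ppm library C. As a share of all RPKM the Vha genes took 1.59% and 1.78% without manganese, compared with 1.66% and 1.54% at 5 ppm. The V1 genes summed to 4626 and 5018 RPKM without manganese, against 4787 and 4358 at 5 ppm. The Vo genes summed to 4292 and 4417 RPKM on the manganese-free diet and 4362 and 3798 on the 5 ppm diet.

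Values also differed between the libraries of a diet. The 5 ppm library C was the lowest for 12 of 18 members, 66.7%, beside 29.2% of all tested genes, and the no-manganese library B was the lowest for the other 6, beside 26.9% of all genes. The no-manganese library C was the highest for 11 of 18, beside 30.3% of all genes. The median deviation of the members from their own means was -0.10 on the log2 scale in the 5 ppm library C and 0.09 in the no-manganese library C, and 0.04 and -0.00 in the B libraries. Summed enterocyte markers, mostly digestive enzymes, were also lowest in the 5 ppm library C, at 14530 RPKM, while Myo31DF was highest there, at 86.5 against 75.8 to 83.4 RPKM. Their part in these differences was not tested. Vha100-4, Vha100-1 and Vha68-1 were all lowest in the no-manganese library B.

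**Figure D4:**
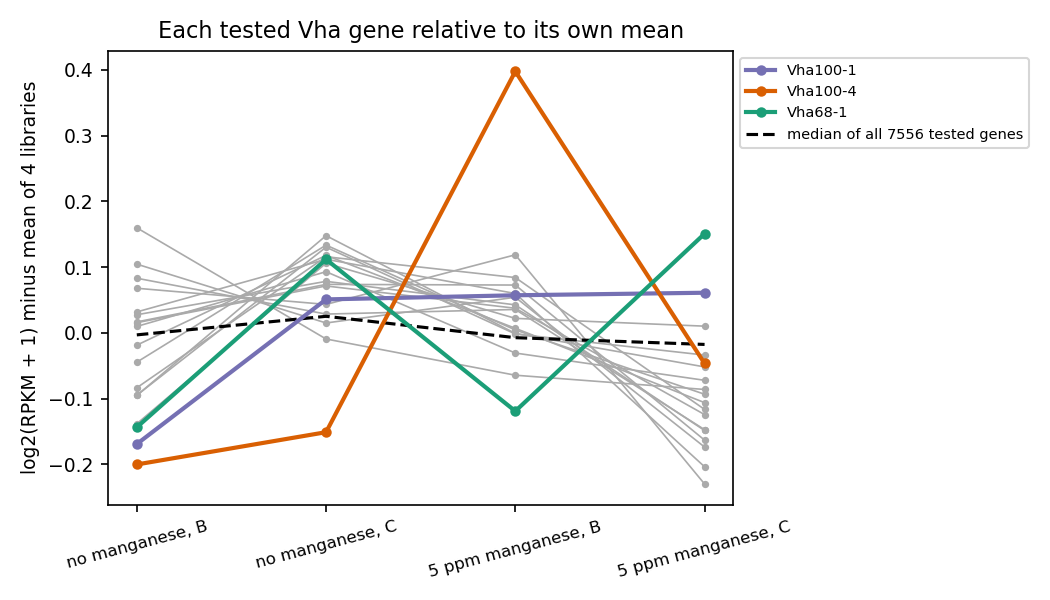
Log2(RPKM + 1) of each of the 18 tested Vha genes minus its own mean over the 4 libraries; lines join the values of a gene and imply no order of libraries, and the dashed line is the median of all 7556 tested genes. Most members are lowest in the 5 ppm library C, and Vha100-4 stands out in the 5 ppm library B.

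Genes that act with the pump gave no call either. Of 12 tested regulators and partners 7 were higher, beside 56.4% of all genes, and 5 were lower. Of these genes 0 were past the test, and their median was 0.03. Mitf, the transcription factor known to drive V-ATPase and lysosomal genes, had 35.4 and 37.1 RPKM without manganese, compared with 29.1 and 31.2 at 5 ppm. Rbcn-3A, a rabconnectin needed for pump function, had 24.1 and 29.4 RPKM without manganese, against 35.1 and 34.9 at 5 ppm. The diets did not overlap for either gene, as was so for 36.9% of all genes tested. Mitf was the higher and Rbcn-3A the lower without manganese, at 0.26 ± 0.10 SE and -0.38 ± 0.13 SE as log2 fold changes (limma, adjusted p = 0.802 for each). Rbcn-3B, the partner of Rbcn-3A, was at -0.24 ± 0.12 SE and the TLDc-domain gene mtd at -0.30 ± 0.12 SE. Both were lower without manganese, also with no overlap between the diets. Lamtor2, of the Ragulator complex that binds the pump on lysosomes, was listed at 0 in every library, while Lamtor1, Lamtor3, Lamtor4 and Lamtor5 had 18.3 to 35.2 RPKM. A listed 0 in this table may therefore not always be a count of 0.

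Genes of ion transporters and carbonic anhydrases that work beside the pump also spread on either side of 0. Of 17 tested 11 were higher, beside 56.4% of all genes, and 6 were lower. Of these genes 0 passed and the median was 0.05. The carbonic anhydrase gene CAH3 lay at a log2 fold change of 0.22 ± 0.09 SE, its relative CAH2 at -0.35 ± 0.26 SE and the chloride transporter gene ClC-c at -0.13 ± 0.11 SE. CAH2 had 482 and 297 RPKM on the manganese-free diet and 479 and 487 on the 5 ppm diet, so that the no-manganese library C alone was low.

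Lysosomal hydrolases and membrane proteins, which work in compartments the pump acidifies, gave no call. Of 18 tested 13 were lower and 5 higher by value, beside 43.6% of all genes lower, 0 passed and the median was -0.08. Besides the glucocerebrosidase gene Gba1b, at -1.03 ± 0.12 SE (limma, adjusted p = 0.487), the beta-galactosidase gene Gal, the mannosidase gene beta-Man and the lysosomal membrane gene Cln3 had the smallest p-values. On the log2 scale Gal was at -0.48 ± 0.23 SE, beta-Man at -0.23 ± 0.12 SE and Cln3 at -0.33 ± 0.18 SE. Gba1b has a close paralog, so its reads may be split between copies.

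**Figure D5:**
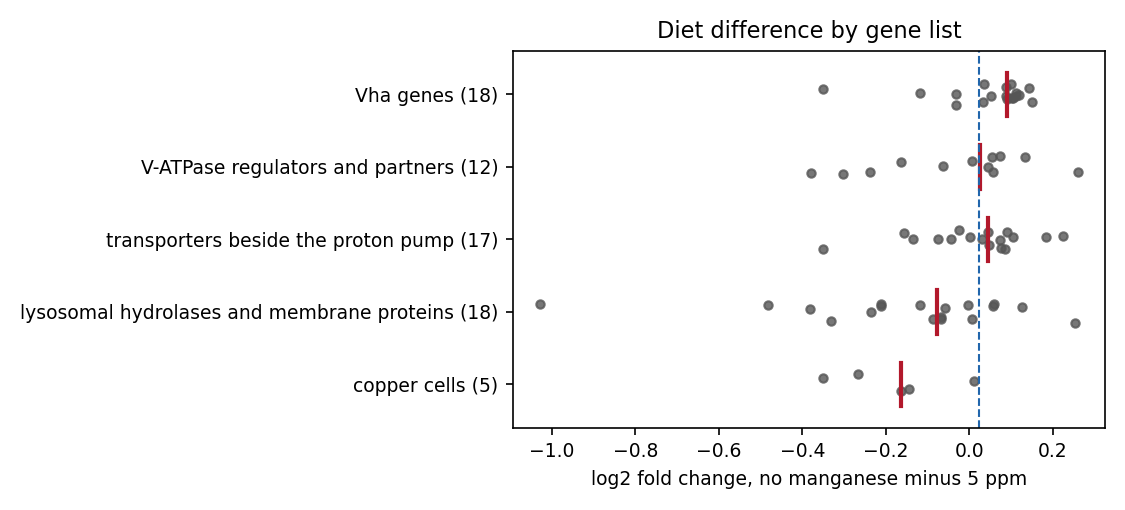
Log2 fold change (no manganese minus 5 ppm) of each tested gene in 5 lists, with the number tested in brackets; red bars are list medians and the dashed line is the median of all tested genes, 0.02. Vha genes other than Vha100-4 lie between -0.12 and 0.15.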

How the data were processed

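The authors deposited RPKM values, 1 column per library and 4 in all, with no counts. Per the submitters' processing notes, STAR 2.5.2b, DESeq2 and the dm6 build were used, with no role given. The read counter, strandedness and handling of multi-mapping reads were not given in the sources used here, so values of near-identical paralogs may share reads. Columns name the diet and a letter, and were assigned to a diet, not to a numbered sample.

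Symbols came from a gene name table (80 identifiers had none), and positions and exon lengths from the Ensembl 115 annotation of BDGP6, whose coordinates are those of dm6. RPKM times exon length gave each library's reads: among values below 20 reads, 84.5% to 85.5% were whole to within 0.02. Intervals and read floors (3 reads) cover counting error or library spread only.

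Log2(RPKM + 1) values were tested with limma 3.58.1 (R 4.3.3), over all genes with a mean of at least 1 RPKM, with a variance trend, 2.58 prior and 2 residual degrees of freedom, 2-sided and adjusted by Benjamini-Hochberg over all 7556 genes at 0.05. The scale understates changes of low genes. The fit was also run on simulated data with the same spread for every gene, which does not show what it could detect here. Other pseudocounts, filters, scalings and variance settings, a block by letter and leaving out each library were tried.

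Every Vha gene with a row under its current identifier is accounted for, and Vha44 has no values here. Genes outside the members were taken from lists, up to 4 with the smallest p each, and 8 lysosomal names and 4 marker names matched no row. Members and lists were chosen with earlier results of these data known.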

Additional observations from a re-analysis of the deposited data

How the results depend on the processing

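There were 10 alternatives other than leaving out a library. These were pseudocounts of 0.1 and 5, no filter, a mean of at least 5 RPKM and 3 scalings. The others were no variance trend, robust estimation and the library letters as a block. Under them 0 of the Vha genes, partner list genes or copper cell genes tested passed, and 179 of 179 fold changes kept their sign. The filters, variance settings and block cannot alter a fold change, so only the pseudocounts and scalings could change a sign. The smallest limma adjusted p of a tested member over the 10 alternatives was 0.459, for Vha100-4 with the replicate block. The block could not move the median of 0.0897, because each diet holds both letters. The letters are not known to pair libraries: B minus C differences of the diets correlated at 0.341 across 7556 genes, which are not independent. The median ran from 0.0654 to 0.102, and scaling moved the share of all genes that were higher from 56.4% to between 50.6% and 52.8%.

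With 1 library left out, the lone library of a diet is assumed to vary like the others, and 0 members passed. The median then ran from 0.0112 to 0.147 and the difference in summed RPKM, 549 with all libraries, from 41.1 to 1056. In 8 members the sign changed, with log2 ranges of -0.15 to 0.090 (Vha100-2), -0.17 to 0.10 (Vha68-1), -0.068 to 0.13 (Vha55), -0.077 to 0.15 (Vha68-2), -0.069 to 0.17 (VhaAC45), -0.00011 to 0.18 (VhaSFD), -0.063 to 0.29 (Vha14-1) and -0.028 to 0.21 (VhaAC39-1). The cause was not tested. Exon length by median transcript exchanged the order of VhaM9.7-b with VhaAC39-1 and Vha100-5. With 2 libraries a diet, a difference within these intervals was not detectable.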

Other observations

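Visceral muscle markers summed to 577 and 645 RPKM without manganese, compared with 619 and 631 at 5 ppm, and enteroendocrine markers to 347 and 338 against 382 and 357. Progenitor markers summed to 13.45 and 11.9 RPKM against 13.8 and 10.9, and haemocyte markers to 4.86 and 10.3 against 6.21 and 6.97. Of the tested markers of these 4 lists 0 passed. By value, 4 of 6 tested enterocyte markers were higher without manganese, beside 56.4% of all genes. So were 4 of 5 for the Malpighian tubule and 4 of 5 for the fat body, and 0 passed. For ovary and eggshell 6 of 6 were higher and 0 passed, but these genes reached the tested level only through the no-manganese library C. Their direction was fixed by that library, and the no-manganese library B had the lowest sum, 0.602 RPKM. Neuronal markers apart from Vha100-1 were low: elav had 1.01 to 1.24 RPKM, and nSyb, Syt1, brp and para stayed at or under 0.918 RPKM in each library, while Vha100-1 had 18.2 to 21.5 RPKM.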
